A study of Mus musculus with 2 samples.

Results

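The miR-378 family is the set of microRNA genes whose GENCODE M21 names are Mir378 followed by a letter. Membership went by name alone, though the family was chosen with earlier results of these data known. The members are 4 of the 2202 measured microRNA genes, namely Mir378a, Mir378b, Mir378c and Mir378d. All 4 were detected, which here means at least 10 sense-strand counts in each library, against 14.3% of all measured microRNA genes. The counts came from microRNA sequencing of myocytes, the muscle cells formed by the mouse myoblast line C2C12, sampled 72 h after differentiation began. C2C12 goes back to crush-injured thigh muscle of C3H mice, so both libraries come from the same immortal line and stand for no other muscle. There is 1 group with 2 libraries, biological replicates 1 and 2, and no comparison between conditions can be made. The labels do not say whether the cultures were grown separately, so the spread between the replicates may be technical in part. Replicate 1 held 15349205 reads with 7581366 assigned to microRNA genes, and replicate 2 held 18450359 reads with 9865298 assigned.

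A microRNA is cut from a hairpin transcript, and bases 2 to 8 of the mature strand, the seed, pair with target messenger RNAs and lower their output. The hairpin of miR-378a lies inside the gene of PGC-1β (Ppargc1b), a coactivator that raises mitochondrial and fatty acid metabolism, and the microRNA has been tied to energy balance in mice. In C2C12 cells miR-378 is known to increase during differentiation and to repress MyoR (Msc), an inhibitor of muscle gene activation by MyoD.

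The RefSeq table (build GRCm38.p6) held sequences of 3 of the 4 genes. Their mature strands are shown 5′ to 3′ with the seed in capitals, because the members differ in the seed and at the 3′ end.
miR-378b: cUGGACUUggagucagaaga
miR-378c: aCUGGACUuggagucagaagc
miR-378d: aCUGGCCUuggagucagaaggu
Counted from base 1 of miR-378c, miR-378d differs by A6C, which lies in the seed, and by C21G, and has 1 further base at its 3′ end. In the same numbering miR-378b lacks base 1 and differs by C21A, so its annotated 5′ end, and with it the seed, is shifted by 1 base. None of the 3 seeds was found in any other of the 1738 mature sequences of that table. Mir378a has no entry in that table, and its hairpin holds the seeds of miR-378b and miR-378c.

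The hairpins are shown with the mature strand in capitals, since its place in the hairpin is not the same in the 3 genes.
Mir378b, chr11:88352773-88352864, plus strand: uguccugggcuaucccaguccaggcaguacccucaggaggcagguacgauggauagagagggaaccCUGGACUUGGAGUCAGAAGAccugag
Mir378c, chr14:46954830-46954928, minus strand: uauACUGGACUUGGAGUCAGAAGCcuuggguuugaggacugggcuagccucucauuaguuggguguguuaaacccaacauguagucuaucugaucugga
Mir378d, chr10:126710282-126710391, minus strand: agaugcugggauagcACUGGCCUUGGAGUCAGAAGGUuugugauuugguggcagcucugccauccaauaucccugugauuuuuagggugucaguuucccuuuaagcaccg
The mature strand takes bases 67 to 86 of the 92 bases of Mir378b, near the 3′ end. It takes bases 4 to 24 of the 99 bases of Mir378c and bases 16 to 37 of the 110 bases of Mir378d, both near the 5′ end.

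Only Mir378a lies in a host gene on its own strand. Mir378a (ENSMUSG00000105200.1) covers the minus strand of chromosome 18 from 61397835 to 61397900 (mm10, 66 bases). It falls in intron 1 of all 3 Ppargc1b transcripts that cover it, 2531 bases after the most upstream annotated start of that gene and in no exon. Mir378b (ENSMUSG00000092985.1) lies opposite intron 11 of Msi2, the gene of an RNA-binding protein, on the other strand. Mir378c (ENSMUSG00000099036.1) lies opposite introns of Samd4, also the gene of an RNA-binding protein, in all 4 transcripts that cover it. Mir378d (ENSMUSG00000098756.1) overlaps no host gene, and the nearest protein-coding genes, Atp23 and Lrig3, are 158035 and 694922 bases away.

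By assigned counts, Mir378a was among the most abundant microRNA genes of these myocytes and the other 3 members were rare. Mir378a had 663482 counts in replicate 1 and 1366156 in replicate 2. As a share of assigned counts this was 8.75% in replicate 1 (95% Wilson interval 8.73 to 8.77) and 13.85% in replicate 2 (13.83 to 13.87), a mean of 11.3% ± 3.60 (SD, n = 2). The Wilson intervals and the exact intervals given further on cover counting error only, since PCR copies without molecular identifiers are not independent molecules. The Wilson intervals of the libraries do not overlap. By these counts Mir378a held rank 2 in both libraries, behind the muscle microRNA gene Mir206. It had 0.257 counts per Mir206 count in replicate 1 and 0.332 in replicate 2. The counts appear to leave out multi-mapped reads, which map to several places. These numbered 3378438 in replicate 1 and 3295854 in replicate 2, in each library more than the Mir378a counts. Which genes they came from was not tested, so the rank and share hold for assigned counts only.

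**Figure D1:**
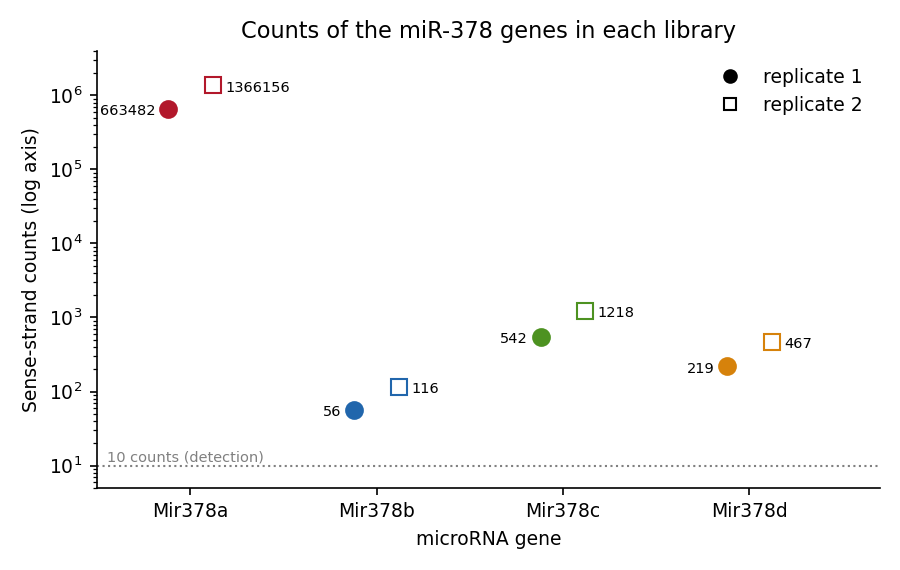
Sense-strand counts (log axis) of the 4 miR-378 genes, with a filled circle for replicate 1 and an open square for replicate 2. Mir378a stands at 663482 and 1366156 counts, the other genes between 56 and 1218, and every gene has more counts in replicate 2.

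Mir378c was the most abundant of the other 3 genes, with 542 counts in replicate 1 and 1218 in replicate 2, or 71.5 and 123 CPM (counts scaled to 1000000 assigned counts). Mir378d had 219 counts in replicate 1 and 467 in replicate 2, or 28.9 and 47.3 CPM. Mir378b had 56 and 116 counts, or 7.39 and 11.8 CPM. The ranges of the members over the libraries do not overlap, and the order Mir378a, Mir378c, Mir378d, Mir378b was found in both libraries. The means were 97.5 ± 36.8 CPM for Mir378c, 38.1 ± 13.1 for Mir378d and 9.57 ± 3.09 for Mir378b (SD, n = 2 each).

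A small RNA read is a whole molecule, so counts need no correction for length, and the order was the same per base of hairpin. In counts, Mir378a was 1224 times Mir378c in replicate 1 and 1122 times in replicate 2. Per base of hairpin, Mir378a was 1836 times Mir378c in replicate 1 and 1682 times in replicate 2. The counts of Mir378c were 2.48 and 2.61 times those of Mir378d, and the counts of Mir378d were 3.91 and 4.03 times those of Mir378b.

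**Figure D2:**
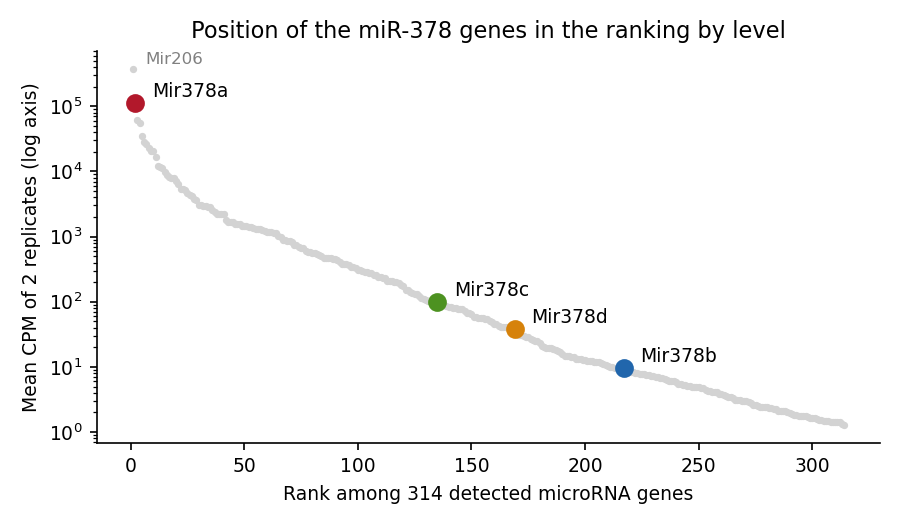
Mean CPM of 2 replicates (log axis) against rank for the 314 detected microRNA genes (grey), with the miR-378 genes in colour. Mir378a is at rank 2, below Mir206, and Mir378c, Mir378d and Mir378b are at ranks 135, 169 and 217.

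Among the 314 detected genes, Mir378c had rank 135 by mean CPM, Mir378d rank 169 and Mir378b rank 217. The genes next to Mir378a in rank were Mir206 above it and Mir21a and Mir22 below it. Mir378c stood below Mir128-1 and Mir467d and above Mir374b and Mir193b. Mir378d stood below Gm23935 and Mir701 and above Mir1968 and Mir486. Mir378b stood below Gm26117 and Mir190b and above Mir29b-2 and Mir7j. Of these, Mir128-1, Mir467d, Gm23935, Mir190b and Mir29b-2 share 20 bases with other hairpins, which makes their counts uncertain. These ranks are loose, since the CPM of neighbours such as Mir467d (165 in replicate 1 and 31.1 in replicate 2) differed between the libraries by more than the distance to the next rank. With Mir378c at 71.5 and 123 CPM, it and Mir467d do not differ beyond their spread.

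The 4 genes together took 8.76% of assigned counts in replicate 1 and 13.9% in replicate 2. Mir378a made up 99.88% of the family's counts in replicate 1 and 99.87% in replicate 2. For context, 10 microRNA families with at least 3 lettered members and a summed mean of at least 1000 CPM were measured, and the miR-378 family had the largest sum, 113143 CPM. The share of the leading member was higher only in the Mir21, Mir133 and Mir28 families, and in the other 6 it lay between 41.6% (Mir181) and 96.2% (Mir29). Words of 20 bases are common to Mir133b and the Mir133a genes, to Mir28a and Mir28c, to Mir378a and Mir378c, and to several let-7 genes. Such words are also common to Mir29b-1 and Mir29b-2, to Mir29b-1 and Mir29c, and to Mir30c-1 and Mir30c-2. The same holds for Mir181a-1 and Mir181a-2, and for Mir181b-1 and Mir181b-2. The shares and sums in all these families are uncertain. These shares are descriptions and were not tested.

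The 3 rare genes kept nearly the same number of counts per Mir378a count in both libraries. Mir378c had 81.7 counts per 100000 Mir378a counts in replicate 1 (95% exact interval 75.0 to 88.9) and 89.2 in replicate 2 (84.2 to 94.3). Mir378d had 33.0 per 100000 in replicate 1 (28.8 to 37.7) and 34.2 in replicate 2 (31.2 to 37.4). Mir378b had 8.44 in replicate 1 (6.38 to 11.0) and 8.49 in replicate 2 (7.02 to 10.2). The intervals of each gene overlap between the libraries, while the intervals of the 3 genes do not overlap one another.

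The same 3 genes are close to Mir378a in sequence. Of the 21 bases of miR-378c, 20 are found in register in the Mir378a hairpin, as are 19 of the 20 bases of miR-378b and 20 of the 22 bases of miR-378d. The longest unbroken run is 20 bases for miR-378c, 19 for miR-378b and 15 for miR-378d. The matching stretch lies near the 3′ end of the 66-base Mir378a hairpin, at bases 43 to 63 for miR-378c. The seed of miR-378c and that of miR-378b are present there unchanged, and the seed of miR-378d is not. Whether reads of Mir378a with sequencing or trimming errors take part in the counts of the other 3 genes was not tested.

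**Figure D3:**
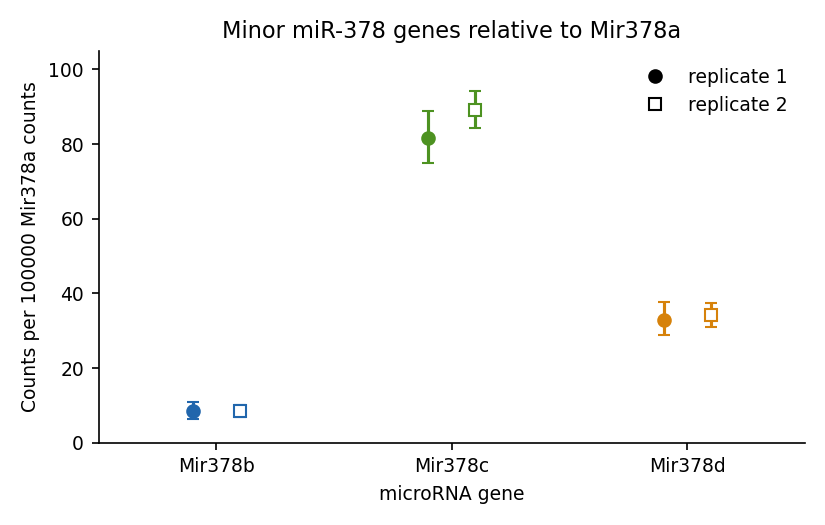
Counts of Mir378b, Mir378c and Mir378d per 100000 Mir378a counts, with a filled circle for replicate 1, an open square for replicate 2 and bars for the 95% exact interval (counting error only). Mir378c lies at 81.7 and 89.2, Mir378d at 33.0 and 34.2 and Mir378b at 8.44 and 8.49, and the bars of the libraries overlap for each gene.

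All 4 genes were lower in replicate 1 than in replicate 2 by similar factors. The log2 ratio of CPM, replicate 1 over replicate 2, was −0.66 for Mir378a, −0.67 for Mir378b, −0.71 for Mir378d and −0.79 for Mir378c. Each gene passed an exact two-sided binomial test that took the library totals as fixed, with Benjamini-Hochberg adjustment over the 314 detected genes. The adjusted p was below 1e-300 for Mir378a, 3.85e-27 for Mir378c, 1.73e-09 for Mir378d and 0.0071 for Mir378b. The test takes each read as an independent molecule and covers counting error only, so with 1 library a side it says nothing of the spread between cultures, here or for the gene lists further on. It compares these libraries and not conditions, and 66.6% of detected genes passed it. Of all detected genes 28.3% passed with the lower value in replicate 1, as the 4 members did, and 38.2% with the higher.

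The size of the difference was not unusual for these libraries. The median absolute log2 ratio over the 314 detected genes was 0.51, and 127 genes (40.5%) had a larger one than Mir378a. The median log2 ratio was −0.69 over the 4 members and 0.09 over all detected genes. The members' ratios spanned 0.13, and 14 of the 310 other detected genes (4.52%) fell inside that span. The choice of denominator shifts all ratios together: without Mir206 in the library total, the median over all genes was −0.09 and the members lay between −0.96 and −0.84.

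**Figure D4:**
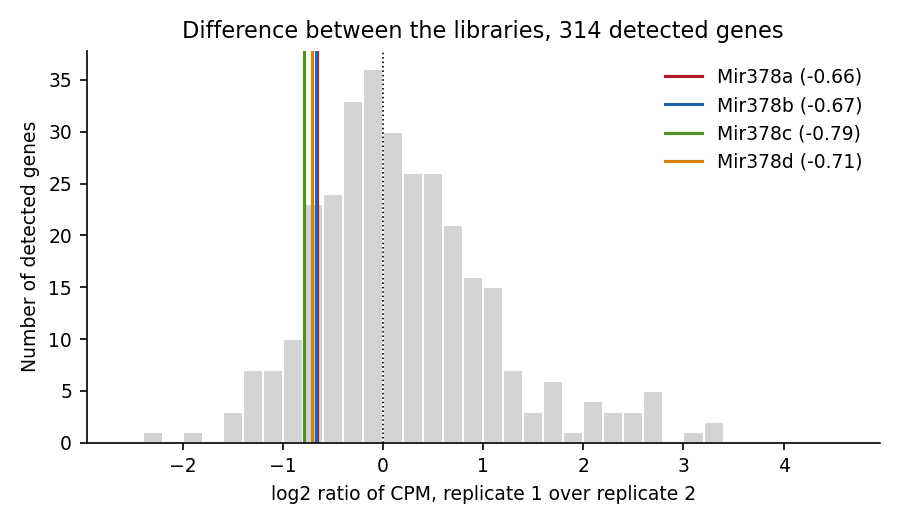
Number of detected genes (n = 314) by log2 ratio of CPM, replicate 1 over replicate 2, with coloured lines at the miR-378 genes and a dotted line at 0. The members lie side by side between −0.79 and −0.66, left of the median of all genes at 0.09.

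Of the 65 genes that averaged 1000 CPM or more, 4 had a lower log2 ratio than Mir378a and 23 a larger absolute one. Among these 65 genes, those nearest to Mir378a by the absolute difference of log2 ratios, over 2 libraries only, were Mir744 (0.06 away), Mir130b (0.07), Mir351 (0.09) and Mirlet7b (0.10). Mir744 had 1105 CPM in replicate 1 and 1678 in replicate 2, Mir130b 1168 and 1935, and Mir351 7055 and 10473. Mirlet7b had 18538 CPM in replicate 1 and 27399 in replicate 2. With 2 libraries this likeness describes 1 difference per gene.

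How strands were counted decided whether Mir378a was seen at all. The predicted microRNA gene Gm25301 (ENSMUSG00000093026.1) runs along the plus strand from base 61397813 to base 61397925 of chromosome 18 and covers the whole Mir378a hairpin from the other side. In the either-strand column, where a read over both genes belongs to neither, Mir378a had 0 counts in both libraries. The sense counts of Mir378a equal 89.4% of all ambiguous reads of that column in replicate 1 (741854 reads) and 92.0% in replicate 2 (1485288 reads). Of the 133 genes that averaged 100 CPM or more, 9 were at 0 in that column, and Mir378a was the most abundant of them.

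The reads over this locus came from the Mir378a strand. Gm25301 had 2 sense counts in replicate 1 and 2 in replicate 2, below the 3 counts that a count of 0 allows. Its opposite-strand column held 663482 counts in replicate 1, exactly the sense count of Mir378a, and 1366158 in replicate 2, which is 2 more. At most 2 reads of the minus strand therefore fell on the Gm25301 interval without being counted for the shorter Mir378a hairpin. Mir378b, Mir378c and Mir378d had no opposite-strand counts in either library, and their either-strand and sense counts were equal.

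The hairpins of the rare genes were predicted to fold less stably than that of Mir378a. The predicted minimum free energy was −38.5 kcal/mol for Mir378a, −35.0 for Mir378d, −31.1 for Mir378b and −27.0 for Mir378c. Per 100 bases of hairpin this was −58.3 kcal/mol for Mir378a, −33.8 for Mir378b, −31.8 for Mir378d and −27.3 for Mir378c. The annotated hairpin of Mir378a is the shortest, with 66 bases against 92 to 110, so the values per base are taken over unequal spans. Of the 314 detected hairpins, 287 were less stable per base than Mir378a, but only 30, 19 and 5 were less stable than Mir378b, Mir378d and Mir378c. The median was −43.3 kcal/mol per 100 bases over the 314 detected genes and −35.0 over the 1888 genes that were not detected. In the predicted folds 15 of the 20 bases of miR-378b, 15 of the 21 of miR-378c and 13 of the 22 of miR-378d were paired.

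**Figure D5:**
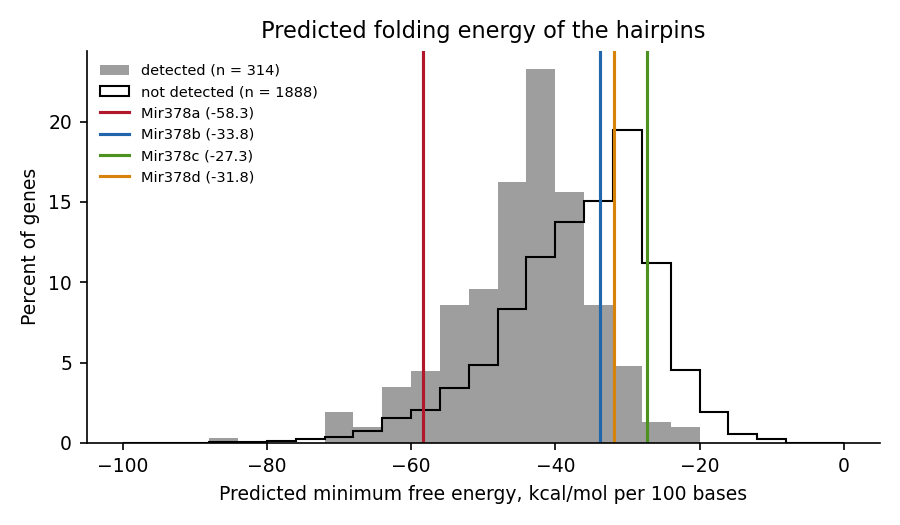
Predicted minimum free energy per 100 bases of hairpin (kcal/mol, more negative is more stable) as percent of genes, for 314 detected genes (grey bars) and 1888 others (black outline), with coloured lines at the miR-378 genes. Mir378a lies at −58.3, and Mir378b, Mir378d and Mir378c at −33.8, −31.8 and −27.3, to the right of the detected median of −43.3.

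Only Mir378a and Mir378c hold a stretch of 20 bases that an exact match cannot tell apart between members. In a search of all annotated microRNA hairpins, 1 of the 47 words of 20 bases in the Mir378a hairpin also occurs in Mir378c, and none of the words of Mir378b and Mir378d occurs in a hairpin at another place. With words of 18 bases, 3 of the 49 words of Mir378a are shared with Mir378b or Mir378c, and with 22 bases none is shared with another hairpin. In a search of all annotated transcripts, chosen after the data were seen, 4 of the 47 words of 20 bases of Mir378a occur elsewhere, in Mir378c or in Afg3l2, the gene of a mitochondrial protease. A 20-base word in another hairpin was found for 78 of the 314 detected genes (24.8%). The counts appear to hold uniquely mapped reads alone, and multi-mapped reads made up 22.01% of all reads of replicate 1 and 17.9% of those of replicate 2. The counts of Mir378a and Mir378c are uncertain to that extent, and what part of the multi-mapped reads came from them was not tested.

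Muscle microRNA genes took a large share of the counts, nearly all of it from Mir206. Of 11 such genes 9 were detected, against 14.3% of all measured microRNA genes. The 11 held 35.5% of replicate 1 and 42.8% of replicate 2, of which Mir206 alone held 34.1% and 41.7%. The median level of the 9 was 30.9 CPM, below the 53.1 CPM of all detected genes. They were led by Mir206 (340841 and 416794 CPM in replicates 1 and 2), Mir133b (13610 and 10568, uncertain because of the bases it shares with the Mir133a genes) and Mir499 (564 and 378). The defining muscle genes Mir1a-1 and Mir1a-2 were low, with 23 and 32 counts in replicate 1 and 28 and 18 in replicate 2. Mir133a-1 (9 counts in replicate 1 and 28 in replicate 2) and Mir133a-2 (8 and 10) were not detected. These genes share bases with near copies, so their counts are uncertain too. Of 12 genes that mark blood, endothelium, epithelium, liver or neurons, 2 were detected, Mir142 (89.0 and 178 CPM) and Mir126a (217 and 42.9), followed by Mir200c with 25 and 4 counts. Of all measured microRNA genes 14.3% were detected, so 2 of 12 is near that share. The 12 genes held 0.0312% of assigned counts in replicate 1 and 0.0224% in replicate 2. Mir200a and the 3 Mir124a genes were at 0 in both libraries, whereas Mir122 of liver had 8 and 4 counts and Mir223 of blood 2 and 1. Reads that fit several of the Mir124a genes would be left out of the counts, so a 0 there does not show absence.

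Other microRNA genes hosted by metabolic or myosin genes differed between the libraries in both directions. All 4 miR-378 genes were lower in replicate 1 by the binomial test, against 28.3% of detected genes, and 38.2% were higher. Whether the rare members hold reads of Mir378a was not tested, so the 4 may not be independent. Of the 7 genes that like Mir378a lie in an intron of a metabolic or myosin gene, 6 were detected, against 14.3% of all measured genes. Of these 6, 3 were higher and 3 lower in replicate 1, with a median log2 ratio of −0.24. They were led by Mir107 of Pank1 (911 CPM in replicate 1 and 88.8 in replicate 2, uncertain because of bases shared with the Mir103 genes), Mir499 of Myh7b, and Mir208b of Myh7 (260 and 496 CPM). Mir378a was far above each of them, at 87515 and 138481 CPM.

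Against 14.3% of all measured microRNA genes, 17 of the 20 measured genes tied to the PGC-1 coactivators or to mitochondria were detected. In the binomial test 8 of these were higher and 6 lower in replicate 1, and 3 did not pass, with a median log2 ratio of −0.02, where 38.2% of all detected genes were higher and 28.3% lower and the median was 0.09. They held 11.6% of replicate 1 and 11.9% of replicate 2, and were led by Mir22 (47786 and 61207 CPM), Mir23a (29161 and 24031) and Mir23b (13280 and 9884). Mir23a and Mir23b share a 20-base word, so their counts are uncertain. The same holds for Mir29b-1, Mir29b-2, Mir29c and the Mir30c and Mir181a genes of this list. Of 16 genes tied to brown or beige fat 15 were detected, 10 higher and 2 lower in replicate 1 and 3 not past the test, with a median of 0.47, led by Mir27b (8643 and 7106 CPM), Mir27a (3220 and 1939) and Mir34a (1961 and 473). Mir27a and Mir27b share a word too, and so do the Mir26a genes, the Mir196a genes and Mir365-2 with near copies. The counts of the brown fat list are to be read against the same 38.2% higher and 28.3% lower, and its detection against the same 14.3%. Whether the lists differ from the miR-378 genes or from all genes was not tested.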

How the data were processed

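Both replicate libraries of differentiated C2C12 cells were analysed. Per the file notes, the deposited values are read counts per microRNA gene (mm10, GENCODE M21); adapters were trimmed, per the labels' protocols. The sources used here name no aligner or counting program. As deposited, the counts are whole numbers in 3 columns (either, sense and opposite strand) with 4 summary entries. This layout is that of a gene count table of uniquely mapped reads, and no header states it.

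Sense counts were used. The summary entries, 50.6% of reads in replicate 1 and 46.5% in replicate 2, stayed out of the totals. All 2202 identifiers matched M21. CPM used the sum of assigned counts. The libraries were compared by an exact binomial test (SciPy 1.17.1) with Benjamini-Hochberg adjustment, tested first on simulated data. The simulated counts had counting error only and were scaled by genes known to be unchanged. The simulation therefore does not show how the test behaves with spread between replicates. TMM (edgeR 4.0.16) and DESeq2 1.42.0 size factors served as alternatives. ViennaRNA 2.7.2 folded the hairpins at 37 °C. No genome was used, so words were searched in M21 hairpins and transcripts, in place of the planned genome search.

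The members and the gene lists were chosen with earlier results of these data known. The named genes are the members, genes that overlap them, the 2 genes next above and below each in mean CPM, the 4 nearest to Mir378a in log2 ratio among genes averaging 1000 CPM or more, and the 3 most abundant genes of each list. The listed gene Mir696 was not analysed here.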

Additional observations from a re-analysis of the deposited data

Results flagged for a closer look

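Each signal given here stands in a column or entry from which no gene's level was taken, and is above 3 counts, the limit for a count of 0. The opposite-strand column of Gm25301 held 663482 counts in replicate 1 and 1366158 in replicate 2. These numbers match, within 2 counts, the sense counts of Mir378a (663482 and 1366156), so they are the same minus-strand signal seen from the other gene and not a further one. Ambiguous reads of the either-strand column numbered 741854 in replicate 1 and 1485288 in replicate 2, and the Mir378a sense counts equal 89.4% and 92.0% of them. There were 3378438 multi-mapped reads in replicate 1 and 3295854 in replicate 2, and their share among the miR-378 genes was not tested.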

How the results depend on the processing

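The mean share of Mir378a, 11.3% of assigned counts, was 5.86% with all reads as denominator, 18.5% without Mir206 in the denominator and 0 in the either-strand counts; it lay between 8.75% and 13.8% when a replicate was left out. Its share of the family's counts, 99.87%, was 99.92% per base of hairpin and 0 in the either-strand counts, and 99.87% to 99.88% when a replicate was left out. The shares of 0 follow from the overlap with Gm25301. The number of detected members stayed at 4 with a minimum of 1 count and with either replicate left out; it was 3 with a minimum of 100 counts (without Mir378b) and 3 in the either-strand counts (without Mir378a). The log2 ratios of the members kept their direction and their side of the threshold in all 26 values under the alternatives that could be run, and those of Mir378a lay between −0.84 and −0.66 in its 6. A minimum count leaves a ratio unchanged and the other alternatives shift the members' ratios together, so the 26 are not independent checks. Of the 209 genes past the test, 120 were higher in replicate 1, against 109 of 208 with TMM factors and 104 of 166 with a minimum of 100 counts; without Mir206 in the denominator, chosen for this count after the data were seen, it was 104 of 215. Among annotated hairpins no word of 22 or 25 bases of a member was shared, and with 1 mismatch allowed 10 of the 47 words of Mir378a were; in all annotated transcripts, searched with 20 bases only, 4 of the 47 were. No paired analysis was possible because there is only 1 group, and 1 library a side leaves no spread between replicates for the test. The search of the genome was not run.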
